A study of Homo sapiens with 2 samples.

Results

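The genes described here form the core of the ATF4 stress response, measured in the Ewing sarcoma cell line MHH-ES-1 and in a radiation-adapted derivative. The set holds 10 genes, chosen by gene symbol: the transcription factor gene ATF4, the bZIP factor genes DDIT3 and CEBPB, the sensor kinase gene EIF2AK3, and ASNS, CHAC1, TRIB3, DDIT4, SESN2 and PPP1R15A. The platform annotation assigned 13 of the 47323 probes to these symbols. All 10 genes had a probe detected on at least 1 array, out of 11352 named genes detected in all. RNA of wild-type MHH-ES-1 cells was hybridised to 1 Illumina bead array and RNA of radiation-adapted MHH-ES-1 cells to another. Both samples are labelled as Ewing sarcoma, a tumour of bone and soft tissue, and for the adapted cells a label gives a dose of 4 Gy. The sources used here do not give how that dose was delivered, whether the derivative is 1 clone, or how long after irradiation the RNA was taken.

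ATF4 is the effector of the integrated stress response. Several kinases sense different stresses, among them misfolded protein in the endoplasmic reticulum (PERK, the product of EIF2AK3) and lack of amino acids (GCN2), and each phosphorylates the initiation factor eIF2. General translation then slows, while the ATF4 mRNA is translated more because of upstream open reading frames in its leader, so that ATF4 protein can rise without a change in its mRNA. ATF4, often paired with a C/EBP factor, switches on genes for amino acid supply, glutathione turnover, mTORC1 restraint and, with the DDIT3 product CHOP, cell death. PPP1R15A encodes GADD34, which returns eIF2 to its unphosphorylated state and closes the loop.

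In the radiation-adapted sample 6 of the 10 genes were at least 2-fold lower and 0 were at least 2-fold higher. Across all detected named genes 10.3% were at least 2-fold lower and 12.4% at least 2-fold higher. The lower genes were TRIB3, DDIT4, DDIT3, CHAC1, ASNS and SESN2. ATF4 itself, CEBPB, PPP1R15A and EIF2AK3 stayed within 2-fold. The median log2 ratio of the set, radiation-adapted minus wild type, was -2.44, against -0.01 over all detected named genes. A ratio below 0 was seen in 9 of the 10, against 50.6% of all detected named genes. Among the 9 the ratios of ATF4, CEBPB and PPP1R15A were small, at -0.40, -0.18 and -0.11. ATF4 stood at 0.14 when its probes were averaged, and PPP1R15A at 0.00 when the arrays were not scaled to each other. With 1 array per group no difference can be set against a spread between cultures, and no p-value can be given. In bulk RNA, fewer cells expressing a gene and less RNA per cell cannot be told apart.

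A probe was called detected at a detection p-value under 0.01, which compares it with the negative controls of its array. The probes detected made up 34.3% on the wild-type array and 37.4% on the radiation-adapted array. Normalized signals are given below on the linear intensity scale after background correction, addition of an offset of 16 and quantile normalization, and their ratios on the log2 scale. The ratio of a gene detected on a single array is a bound and is written "at least". Among different probes of 1 gene the log2 ratio varied with an SD of 0.45 (2269 genes with more than 1 probe measured on both arrays), a spread within the arrays and not between cultures. Scaling mattered for the background: 45.4% of all genes past 2-fold were lower in these values, 33.0% with the arrays scaled to a common median and 28.3% with no scaling. Those settings moved the median of all genes to 0.16 and 0.23. Of the Ewing sarcoma markers in the annotation, 7 of 7 were detected on both arrays, among them NKX2-2, CD99 and FLI1. Their summed normalized signal was 31626 in the wild type and 42134 in the radiation-adapted sample. NKX2-2 was 3.4-fold and CCND1 2.01-fold higher, while STEAP1 was 2.0-fold and CD99 1.86-fold lower. FCGRT, PRKCB and FLI1 had log2 ratios of -0.39, 0.09 and 0.29. Of markers of other cell types, 1 of 6 epithelial, 4 of 7 leukocyte and 5 of 6 fibroblast genes were detected, and PTPRC, EPCAM and PDGFRA were not well above background on either array. The summed normalized signal of the detected leukocyte markers was 433 in the wild type and 664 in the radiation-adapted sample, that of the fibroblast markers 858 and 2087. These sums include readings not called detected, as 1 leukocyte and 4 fibroblast markers were detected on a single array. The 1 detected epithelial marker, KRT8, read 180 in the wild type. In the radiation-adapted sample it was not detected (35.3), and it was at least 4.4-fold lower. Single markers went both ways. THY1 (at least 27.8-fold), COL1A1 (7.92-fold) and CD68 (3.44-fold, with -2.07 on the log2 scale at another probe) were higher. DCN (at least 11.6-fold), LYZ (2.47-fold), CD79A (2.56-fold, with 0.49 on the log2 scale at another probe) and LUM (at least 5.66-fold) were lower. In the radiation-adapted sample LYZ and CD79A read 5.37 and 5.75 on the log2 scale, close to the lowest detected signal of 5.36. The part of these markers in the values of the ATF4 genes was not tested.

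**Figure D1:**
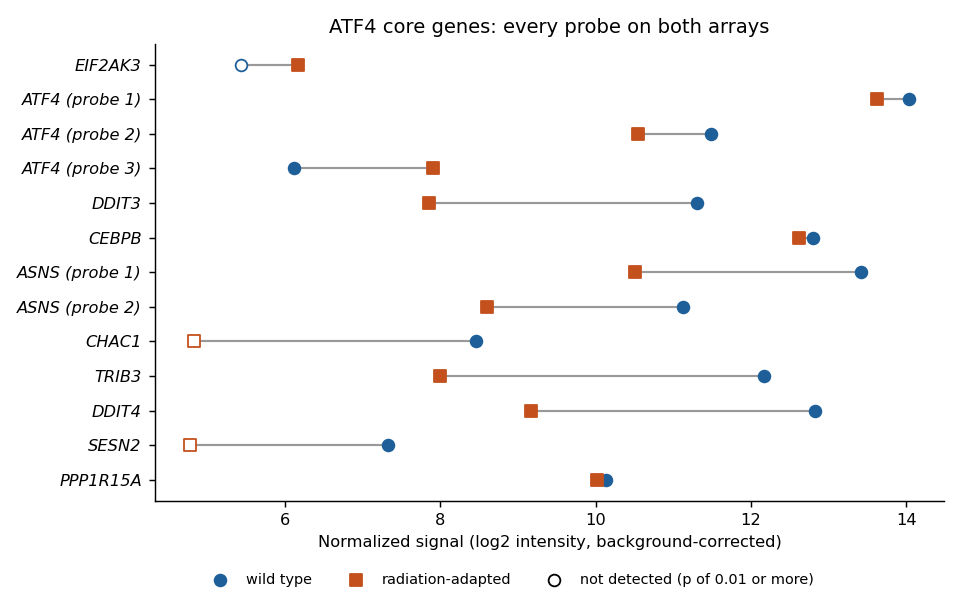
Normalized signal (log2 intensity) of each of the 13 probes on the wild-type array (circles) and the radiation-adapted array (squares), with open symbols where the probe was not detected. TRIB3, DDIT4 and DDIT3 lie more than 3 log2 units apart, CEBPB and PPP1R15A nearly coincide, and the ATF4 probes differ in direction.

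The first question is whether the sensor and the central factor differed in RNA level. EIF2AK3 encodes PERK, the eIF2 kinase of the endoplasmic reticulum membrane. Its single probe had a mean bead signal of 154.0 on the wild-type array, with a detection p-value of 0.02727, and of 194.8 on the radiation-adapted array, where it was detected. EIF2AK3 was at least 1.48-fold higher, short of 2-fold, and was the 1 member with a ratio above 0 at the probe used. At a detection threshold of 0.05, which counts both values as detected, the log2 ratio was 0.73. A probe this close to background on both arrays leaves the size uncertain, and the ratio ran from 0.19 to 0.88 over the settings tried.

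ATF4 was among the brightly measured genes on both arrays. Its brightest probe had a normalized signal of 16699 in the wild type and 12642 in the radiation-adapted sample, which is 1.32-fold lower and within the SD of 0.45 between probes. A further probe, annotated to the transcript NM_182810, read 2885 and 1487 and was 1.94-fold lower. The other NM_001675 probe was dim, at 69.6 and 239, and was 3.44-fold higher. The probes of ATF4 thus disagreed in direction. Their log2 ratios were -0.40, -0.96 and 1.78, with a mean of 0.14, so the direction of the ATF4 RNA difference depended on how its probes were combined. Probe sequences were not used here, and which part of the transcript each probe reads was not examined. The levels are of RNA and do not show how much ATF4 protein was made.

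The bZIP factors that act beside ATF4 differed from each other. DDIT3, which encodes CHOP, a stress-induced factor that promotes cell death when stress persists, had a normalized signal of 2524 in the wild type and 231 in the radiation-adapted sample. It was 10.9-fold lower, with a log2 ratio of -3.45 that ranged from -3.59 to -2.94 over the settings tried. CEBPB, whose product pairs with ATF4 and CHOP and also serves in inflammatory and differentiation programmes, read 7131 and 6302. That difference of 1.13-fold was smaller than the SD between probes. DDIT3 stood 46th from the lowest ratio among the 11352 genes, whereas 39.8% of genes had a lower ratio than CEBPB.

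Among the metabolic targets, ASNS and CHAC1 were both lower. ASNS encodes asparagine synthetase, which makes asparagine from aspartate and glutamine. Its brightest probe read 10971 in the wild type and 1458 in the radiation-adapted sample, 7.53-fold lower. The other ASNS probe read 2227 and 388, 5.74-fold lower, so both probes had the same direction and log2 ratios of -2.91 and -2.52. CHAC1 encodes a gamma-glutamylcyclotransferase that degrades glutathione. It had a normalized signal of 352 in the wild type and was not well above background in the radiation-adapted sample, where its bead signal of 139.8 was near the array median of 142.4. CHAC1 was at least 8.58-fold lower. Its size leaned on the background handling, with a log2 bound of -1.58 without background correction and -3.74 from the authors' processed values.

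Promoter sequence is shown for 4 genes because ASNS, CHAC1 and DDIT4 were lower together while PPP1R15A, another stress-induced gene, stayed within 2-fold. The windows are the 250 bases before the first-listed RefSeq start site, taken from the RefSeq promoter table of GRCh38.p14 and written 5′ to 3′ on the gene's strand. The windows of CHAC1, DDIT4 and PPP1R15A lie just upstream of the annotated gene, and that of ASNS lies within the annotated span of the gene, upstream of this start site, as transcripts from farther upstream are also annotated. Exon positions were not used here. Capitals mark matches to the composite C/EBP-ATF element, searched as TGATGNAA on both strands, or to the palindromic cyclic AMP response element TGACGTCA. ASNS is at chr7:97872409-97872658 on the minus strand, CHAC1 at chr15:40953221-40953470 on the plus strand, DDIT4 at chr10:72273674-72273923 on the plus strand and PPP1R15A at chr19:48872171-48872420 on the plus strand.
ASNS: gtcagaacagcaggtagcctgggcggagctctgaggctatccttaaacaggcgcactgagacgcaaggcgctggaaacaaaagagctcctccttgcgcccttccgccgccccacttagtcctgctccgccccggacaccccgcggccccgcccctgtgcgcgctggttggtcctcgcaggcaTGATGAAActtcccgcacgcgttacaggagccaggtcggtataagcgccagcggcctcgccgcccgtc
CHAC1: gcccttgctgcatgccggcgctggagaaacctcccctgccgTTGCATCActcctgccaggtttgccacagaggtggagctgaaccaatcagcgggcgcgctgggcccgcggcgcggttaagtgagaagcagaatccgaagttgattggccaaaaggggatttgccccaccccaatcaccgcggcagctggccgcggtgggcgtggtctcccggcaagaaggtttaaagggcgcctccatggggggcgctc
DDIT4: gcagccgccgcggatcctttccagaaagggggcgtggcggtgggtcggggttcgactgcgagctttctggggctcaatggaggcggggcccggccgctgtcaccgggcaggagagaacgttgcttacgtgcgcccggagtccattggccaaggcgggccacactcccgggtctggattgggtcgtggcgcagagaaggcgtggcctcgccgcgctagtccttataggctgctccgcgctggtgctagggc
PPP1R15A: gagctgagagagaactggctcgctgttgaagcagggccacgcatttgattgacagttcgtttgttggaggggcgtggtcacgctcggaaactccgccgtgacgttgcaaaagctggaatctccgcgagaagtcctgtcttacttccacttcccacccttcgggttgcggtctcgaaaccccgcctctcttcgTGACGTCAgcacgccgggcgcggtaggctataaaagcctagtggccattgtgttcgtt

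The match in ASNS, TGATGAAA, began at position -68 from the start site on the gene's strand. In CHAC1 the match lay on the other strand and read TTGCATCA from position -209. The table listed 16 windows for the 10 genes, and 2 of the 16, 1 each of ASNS and CHAC1, held TGATGNAA. Of all 35116 windows of the same length, 3.14% held it. The cyclic AMP response element was found in 1 of the 16 windows, that of PPP1R15A, at position -58, and in 1.65% of all windows. Neither pattern overlapped the other in these windows. TRIB3, DDIT3, DDIT4 and SESN2, which were also lower, held neither pattern in their windows, which says only that these letters are not there. Known ATF4 elements of human genes can lie outside so short a window, so the matches describe the sequences and no binding was measured.

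Targets that restrain growth signalling held both the lowest and the highest printed log2 ratio of the 6 lower members, in TRIB3 and SESN2. The value of SESN2 is a bound, so its difference may be larger and its place among the 6 is not settled. TRIB3 encodes a pseudokinase that binds ATF4, CHOP and the kinase AKT. Its probe read 4608 in the wild type and 254 in the radiation-adapted sample. TRIB3 had the lowest log2 ratio of the set, -4.18, and stood 22nd from the lowest of the 11352 genes. DDIT4 encodes REDD1, which inhibits mTORC1 through the TSC complex and also responds to hypoxia and glucocorticoids. It read 7255 and 577, with a log2 ratio of -3.65 that stayed between -3.71 and -3.41 over the settings tried. SESN2 encodes sestrin 2, a leucine sensor upstream of mTORC1 that is a target of p53 as well as of ATF4. SESN2 read 160 in the wild type, was not well above background in the radiation-adapted sample, and was at least 3.9-fold lower. Without background correction its bound was -0.82 on the log2 scale and no longer passed the 2-fold rule.

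The feedback gene PPP1R15A did not follow the 6 lower genes. PPP1R15A had almost the same bead signal on both arrays, 1191.4 and 1192.1, and after normalization read 1122 and 1036. The difference of 1.08-fold was smaller than the SD between probes, and the log2 ratio lay between -0.12 and 0.00 over the settings tried. The members thus divided into 6 genes with log2 ratios from -4.18 to -1.96 and 4 genes from -0.40 to 0.56, with no member between. The values of CHAC1, SESN2 and EIF2AK3 among them are bounds. At a 4-fold rule 5 members were lower, against 2.34% of all detected named genes. SESN2, at least 3.9-fold lower, was not counted, and its bound does not settle whether it passed 4-fold.

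**Figure D2:**
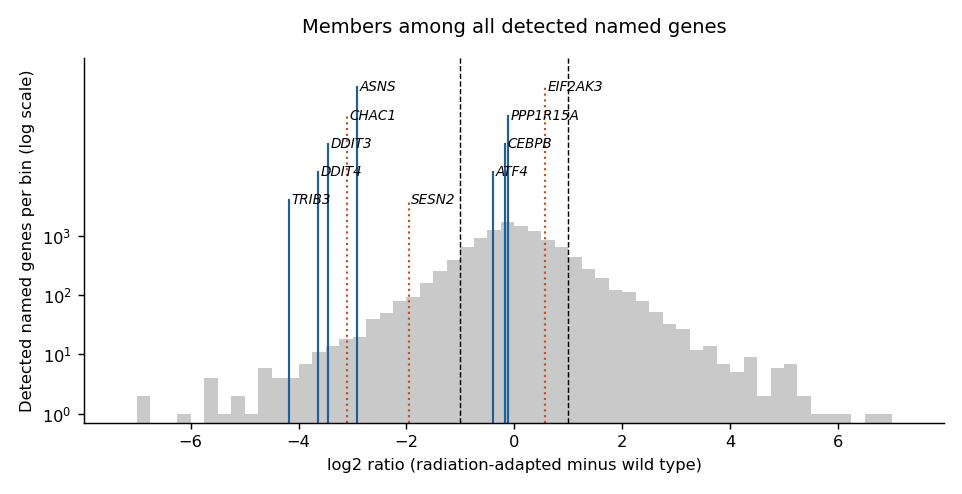
Histogram of the log2 ratio over the 11352 detected named genes (count per bin on a log axis), with each of the 10 members as a line, dotted where its ratio is a bound, and dashed lines at 2-fold. TRIB3, DDIT4, DDIT3, CHAC1 and ASNS lie in the sparse left tail, and SESN2, a bound at -1.96, lies between them and the 2-fold line. ATF4, CEBPB, PPP1R15A and EIF2AK3 sit near the centre.

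The closest relatives of the members on these arrays did not all share their direction. Of 14 paralogues, 12 were detected, with 6 at least 2-fold lower and 3 at least 2-fold higher. ATF5, a bZIP factor that is itself induced by ATF4 and translated in the same way, had a log2 normalized signal of 12.11 in the wild type and 8.66 in the radiation-adapted sample, a 10.9-fold lower level. In the C/EBP family CEBPD, CEBPG and CEBPA were lower by 2.82-fold, 2.12-fold and 2.07-fold, each more than CEBPB. CHAC2, a constitutive relative of CHAC1, was 2.49-fold lower, and SESN1, a p53-regulated sestrin, 2.06-fold lower. With no scaling between the arrays CHAC2, CEBPG, CEBPA and SESN1 kept a ratio below 0 but were less than 2-fold lower (log2 ratios of -0.99, -0.97, -0.74 and -0.70). SESN3 and DDIT4L were not well above background on either array. TRIB2 went the other way from TRIB3 and was 2.77-fold higher, and TRIB1 had a log2 ratio of 0.22.

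The other eIF2 kinases likewise contrasted with the lower target genes. EIF2AK2, which encodes the double-stranded RNA sensor PKR and is also induced by interferon, was 2.58-fold higher. EIF2AK4, which encodes the amino acid sensor GCN2, was 2.44-fold higher. EIF2AK1, which encodes the haem-regulated kinase, read 11.84 and 11.85 on the log2 scale, and its ratio was -0.16 after median scaling and 0.48 at its other probe. PPP1R15B, the constitutive counterpart of PPP1R15A, had a bound of 0.29 above the wild type. No eIF2 kinase RNA was therefore 2-fold lower at the probe used, and kinase activity was not measured.

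Related parts of the pathway were compared as lists of genes that include none of the members. Of 149 listed genes, 135 were detected, with 35 (25.9%) at least 2-fold lower and 10 (7.41%) at least 2-fold higher. Across all detected named genes the shares were 10.3% lower and 12.4% higher. The lists, like the members, were chosen with earlier results of these data known, so these shares describe the lists and are no independent support. The lists differed among themselves, with medians from -1.34 for the amino acid enzymes to -0.13 for the mixed list of further ATF4 and CHOP targets.

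The enzyme and transporter lists lay lower together. Of 12 detected enzymes of amino acid and one-carbon metabolism, 8 (66.7%) were at least 2-fold lower and 0 higher, and 12 had a ratio below 0. The shares of all detected named genes were 10.3% lower, 12.4% higher and 50.6% below 0. PSAT1, which acts in serine synthesis, was 5.34-fold lower, the mitochondrial folate enzyme gene MTHFD2 4.34-fold lower and CTH, which makes cysteine from cystathionine, 4.20-fold lower at its brightest probe and lower at its other probes. PHGDH, the first enzyme of serine synthesis, was 1.74-fold lower, and BCAT1 and ALDH18A1 had log2 ratios of -0.36 and -0.16, the latter 0.10 with no scaling. Of 12 detected amino acid transporters, 6 were lower and 1 higher, with a median of -1.13. SLC1A4, a neutral amino acid carrier, was 4.8-fold lower, SLC7A5, the large neutral amino acid exchanger, 4.35-fold lower and the arginine carrier gene SLC7A1 4.11-fold lower. SLC7A3, another cationic amino acid carrier, was at least 2.02-fold higher, and SLC7A6 and SLC38A2 had log2 ratios of 0.66 (1.2 at the other SLC7A6 probe) and 0.22.

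The tRNA synthetase genes, several of which are ATF4 targets, were mixed. Of 18 detected, 5 (27.8%) were at least 2-fold lower and 1 (5.56%) was higher, with a median of -0.43. Over all detected named genes 10.3% were lower and 12.4% higher. WARS1 was 11.6-fold lower, and its other probe had -3.90 on the log2 scale, GARS1 was 3.32-fold lower and SARS1 3.06-fold lower. FARSB was 2.80-fold higher, and RARS1 and LARS1 had log2 ratios of 0.24 and 0.06, the latter -0.02 after median scaling. Among the bZIP partners 6 of 18 (33.3%) were lower and 2 (11.1%) higher, with a median of -0.18. ATF3, which ATF4 induces, was 3.93-fold lower and JDP2 2.84-fold lower after ATF5. FOS was at least 56.5-fold higher and FOSL1 at least 1.98-fold higher. CREB1 was 4.84-fold higher at its brightest probe, with other probes at -0.60, 0.77 and 1.2 on the log2 scale.

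Further targets and the eIF2 regulators went both ways. Of 22 detected further ATF4 and CHOP targets, 4 (18.2%) were lower and 2 (9.09%) higher. The lipoprotein receptor gene VLDLR was at least 3.78-fold lower and the stress cytokine gene GDF15 at least 2.60-fold lower, again after ATF5, which this list also holds. GADD45A was 2.34-fold higher, the autophagy gene ATG12 2.24-fold higher at its brightest probe with -0.38 at its other probe, and MAP1LC3B had a log2 ratio of 0.58. Of 20 eIF2 regulators, 2 were lower and 2 higher, with a median of -0.26. IMPACT, an inhibitor of GCN2, was at least 4.0-fold lower with -1.21 on the log2 scale at its other probe. The eIF2 beta subunit gene EIF2S2 was 2.66-fold lower, and PPP1CB was 1.83-fold lower with -0.15 at its other probe.

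The other arms of the unfolded protein response and the mTORC1 regulators also went both ways. Of 21 detected genes of the IRE1 and ATF6 arms, 2 were lower and 1 higher, shares of 9.52% and 4.76%, with a median of -0.40 and 15 ratios below 0. XBP1, the factor that IRE1 activates by splicing, was 4.36-fold lower with -2.22 at its other probe, and EDEM1, which directs misfolded proteins to degradation, was 2.68-fold lower. ATF6B had a log2 ratio of -0.94 at its brightest probe and of -1.94 and -2.28 at its others. MBTPS1, the protease that activates ATF6, was 2.21-fold higher with 0.51 on the log2 scale at its other probe. The chaperone genes HSPA5 and HYOU1 had log2 ratios of 0.96 and 0.70. HSPA5 passed 2-fold higher after median scaling (1.22) and with no scaling (1.29). Its single detected probe was dim, with bead signals of 233.6 in the wild type and 404.9 in the radiation-adapted sample. The array medians were 140.3 and 142.4. Among 16 detected mTORC1 regulators, the pathway that DDIT4 and SESN2 restrain, 4 (25.0%) were lower and 1 (6.25%) higher. Over all detected named genes 10.3% were lower and 12.4% higher. NPRL2, part of a complex that inhibits mTORC1 when amino acids are short, was 2.73-fold lower, MLST8 2.14-fold lower and the translation repressor gene EIF4EBP1 2.13-fold lower, the last of which was at -0.81 on the log2 scale with no scaling, where MLST8 stood at -0.94. TSC1 was 2.79-fold higher at its brightest probe, with 1.34 and 0.03 on the log2 scale at other probes. RPS6KB1 and RPTOR had log2 ratios of 0.76 and 0.73.

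**Figure D3:**
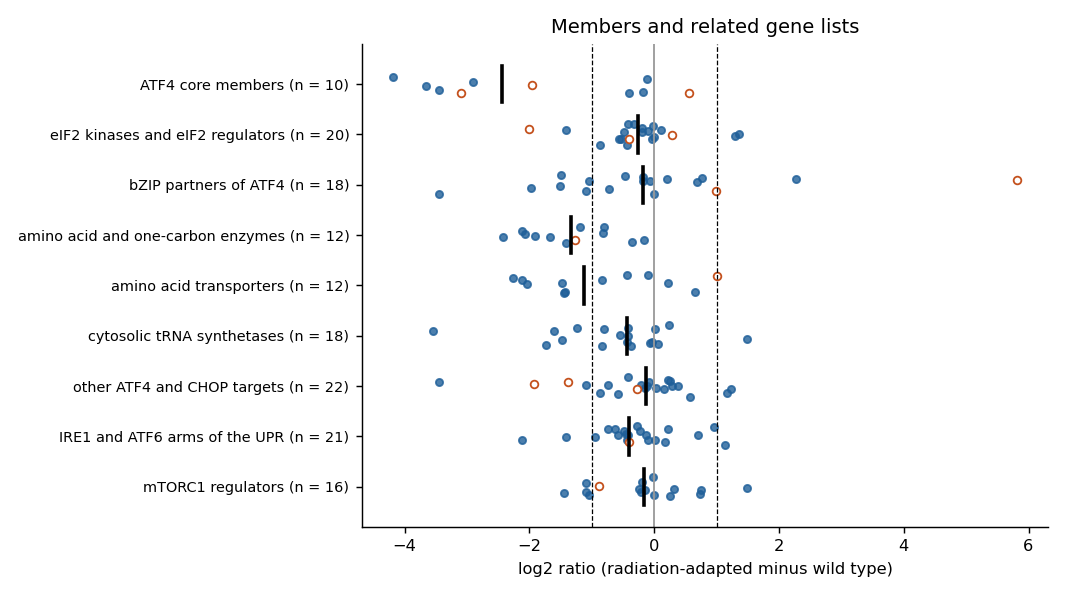
The log2 ratio of each detected gene (points, open where the ratio is a bound) in the members and in 8 related lists, with the list median as a black bar, the median of all detected genes as a grey line and 2-fold as dashed lines. The members have the lowest median, -2.44, followed by the amino acid and one-carbon enzymes at -1.34 and the transporters at -1.13.

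Genes near the members on their chromosomes were compared next, since a regional shift would move a member together with its neighbours. For each member the 10 nearest detected named genes on either side were taken in the gene order of GRCh38.p14, and TRIB3, which lies near a chromosome end, had 14. The neighbour medians ran from -0.68 to 0.36. All neighbours of TRIB3, DDIT4, CHAC1, DDIT3 and SESN2 had a higher ratio than the member, though for DDIT3 and SESN2 the lowest neighbour came within the SD of 0.45 between probes. Few genes anywhere lay lower: 0.185% of all detected named genes for TRIB3, 0.317% for DDIT4 and 0.59% for CHAC1. For DDIT3 the share was 0.396% and for SESN2 2.45%. Most sets of so few genes would lie above such members, so this count cannot tell whether a region shifted. The 14 neighbours of TRIB3 on chromosome 20 had a median of -0.30 and a lowest ratio of -0.90. The 20 neighbours of DDIT4 on chromosome 10 had a median of -0.20 and those of CHAC1 on chromosome 15 one of -0.19.

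The neighbourhoods of DDIT3 and PPP1R15A had the lowest medians. For scale, 50.6% of all detected named genes had a ratio below 0 and 10.3% were at least 2-fold lower. Around DDIT3 on chromosome 12, from STAT6 to CDK4, 17 of 20 neighbours lay below 0, 6 were at least 2-fold lower and the median was -0.55. The lowest of them, COXFA4L2, stood at -3.22, against -3.45 for DDIT3. Around PPP1R15A on chromosome 19, from SULT2B1 to SLC6A16, 19 of 20 lay below 0 and 7 were at least 2-fold lower, among them the apoptosis gene BAX, and the median was -0.68. PPP1R15A therefore had a higher ratio than 16 of its 20 neighbours. Near ASNS on chromosome 7 the median was -0.15, with 2 of 20 neighbours below ASNS, the lowest being NPTX2 at -5.51. Around SESN2 on chromosome 1 the median was 0.15 and the lowest neighbour, RCC1, stood at -1.91. ATF4, CEBPB and EIF2AK3 had neighbour medians of -0.01, 0.13 and 0.36, and their own ratios lay inside the range of their neighbours. Copy number was not measured, and no ratio was adjusted for its neighbourhood.

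**Figure D4:**
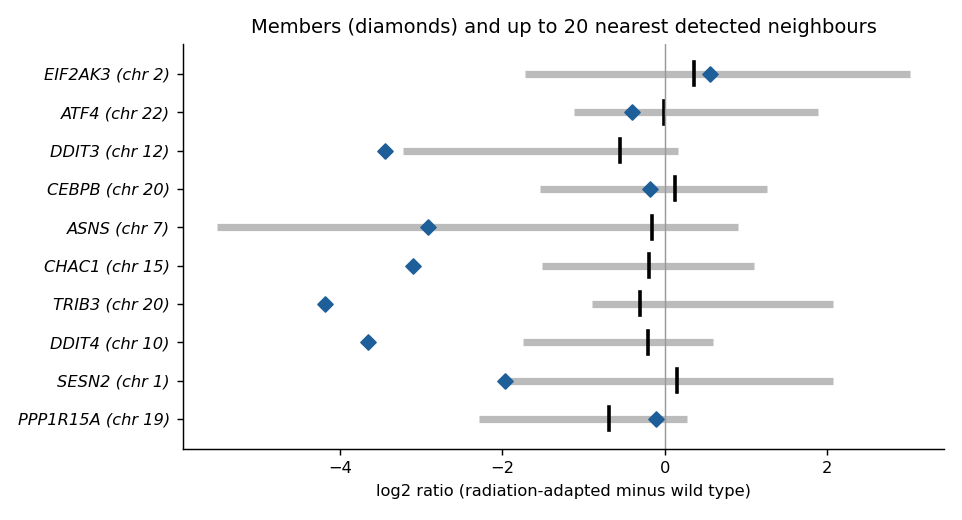
The log2 ratio of each member (diamond) over the range of its nearest detected neighbours on the chromosome (grey bar) and their median (black tick). The diamonds of TRIB3, DDIT4, CHAC1, DDIT3 and SESN2 lie below every neighbour, and also below at least 97.5% of all detected named genes. Those of PPP1R15A, ATF4, CEBPB, EIF2AK3 and ASNS lie inside the range of their neighbours.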

How the data were processed

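RNA from both samples was isolated with Trizol and turned into biotin-labelled cRNA, per the labels' protocols. The deposited unprocessed table holds, per the file headers, a mean bead signal (linear intensity, with no background subtracted, as the values show) and a detection p-value for each probe and array. The authors' processed table holds linear intensity values that reach below 0 and have nearly equal sorted columns. Its columns matched their samples in probe rank (Spearman's rho across probes was 1.00 with the same array and 0.8188 with the other) and it served as an alternative with a floor of 16. The steps behind both tables are not given in the sources used here.

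Signals were background-corrected from the detection p-values (neqc, offset 16, limma 3.58.1, R 4.3.3), quantile-normalized and set on the log2 scale. This step was also run on simulated arrays with few changed probes, which cannot show how it performs with the many differences between these arrays. Each gene took its brightest detected probe over both arrays. For a gene detected on 1 array, the dim value was the higher of its own and the lowest detected signal there (log2 5.60 wild type, 5.36 radiation-adapted). The platform annotation named 1 gene for 30113 probes; 17202 unnamed probes and 8 with several genes were left out. The offset shrinks ratios of dim probes, and the number of arrays limits the precision.

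Members and lists were chosen with earlier results of these data known. The text names every member probe, every detected paralogue and, per list, up to the 3 highest and 3 lowest ratios. No gene is called most like a member, since over 2 arrays any pair correlates at 1 or -1.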

Additional observations from a re-analysis of the deposited data

How the results depend on the processing

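The count of members at least 2-fold lower was 6 in the main values, 5 without background correction, 4 when detection was required on both arrays (7 members left) and 5 at 4-fold, and it was 6 under the other alternatives; the count of higher members was 0 in all of them. The median of the members, -2.44, was -1.87 with an offset of 50, -1.20 without background correction and -2.91 with detection required on both arrays. The first and last shift follow from the shrinkage of dim ratios and from the smaller set of members. The list genes at least 2-fold lower numbered 35, 22 without background correction and 29 with no scaling between the arrays. Those at least 2-fold higher numbered 10, and 6 both without background correction and when the probes of a gene were averaged, against 14 with median scaling and 15 with no scaling. Of 97 recomputed member ratios, 12 moved by more than the SD between probes, mostly those of CHAC1 and SESN2, and no member past 2-fold changed sign. ATF4 changed sign when its probes were averaged (0.14). Of 55 other genes named from the lists, 11 crossed 2-fold under another scaling. That SD was 0.45, or 0.29 from the median difference of genes with exactly 2 probes. No paired analysis was possible because each group has 1 array. Signal close to background limits CHAC1, SESN2 and EIF2AK3.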
